A study of Penicillium oxalicum with 12 samples.

Results

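The strain gCXC of Penicillium oxalicum, a filamentous fungus that secretes enzymes for the breakdown of plant cell walls, was compared with wild type across all of its measured genes. gCXC expresses a chimeric transcription factor named CXC, and the control is the wild-type strain 114-2 (WT). The comparison uses 6 of the 12 libraries of the series, 3 per strain, and covers 8920 of the 9979 genes in the deposited table, namely those that reached 1 FPKM in 3 or more of the 6 libraries. The other 6 libraries come from gXlnRC, which expresses the XlnR(A871V) variant, and gAraRC, which expresses the AraR(A731V) variant, and are used here only where gCXC is set against them. Every strain was grown for 24 h in Vogel's medium with 2% glucose and then held for 4 h in the same medium lacking a carbon source (30 °C, 200 rpm), and mRNA was sequenced from the mycelia. So all groups, the controls included, are carbon-starved. The sources used here do not say which factors CXC is built from, what drives its expression, or whether the strain is 1 transformant. The design text calls the libraries of a strain biological triplicates.

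In fungi of this kind, genes for secreted cellulases and hemicellulases are transcribed at low levels in glucose and are switched on by zinc-cluster activators when plant polymers are present. XlnR activates xylanase genes and takes part in cellulase expression in filamentous fungi, and AraR controls the use of arabinose. Engineered forms of such activators are used to release these genes from their need for an inducer. Which of the measured genes belong to these groups cannot be stated here: the table lists genes by PDE locus tag without names, and the reference table available here shares 0 tags with it. Genes are therefore described by level, change, inferred coding length and place in the tag order, and tags are printed for the 2 largest rises, the 2 largest falls and 2 of the most abundant genes.

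Depth was similar in all libraries of the comparison, from 14685371 to 19446399 reads counted in genes, as inferred from the FPKM steps. FPKM is a read count scaled to gene length and to the size of the library. Spearman correlations across genes were 0.989 to 0.997 between libraries of 1 strain and 0.954 to 0.957 between WT and gCXC libraries. A gene is called here when its Benjamini-Hochberg adjusted p from limma lies below 0.05, and log2 changes are differences of log2(FPKM + 1), a scale that understates changes of low genes. Standard errors of log2 changes had a median of 0.09. The label of gCXC could not be checked against the expression of CXC, whose locus is not known from the files.

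The largest rise of all tested genes was that of PDE_07124, with an inferred coding length of 1395 nt. It stood at 11.9, 11.2 and 11.6 FPKM in the WT libraries, from 238 to 305 reads each, and at 9243, 8639 and 8486 FPKM in the gCXC libraries. No gCXC library came near the WT range. The log2 change was 9.45 ± 0.08 (SE, limma, adjusted p = 1.44e-15). By mean FPKM the gene moved from rank 6417 of all genes in WT to rank 11 in gCXC, and by reads from rank 6237 to rank 3.

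PDE_02681, of 942 nt, had the second largest rise. It stood at 0.382, 0.710 and 0.289 FPKM in WT, which is 6, 13 and 4 reads, and at 747, 706 and 668 FPKM in gCXC, at least 10157 reads per library. The gene was thus near the detection limit in WT and of rank 213 by mean FPKM in gCXC. Its log2 change was 8.93 ± 0.15 (SE, limma, adjusted p = 3.42e-13), with a size that rests on few WT reads. It passed the filter on low values only through gCXC.

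Both genes rose in gCXC far above their levels in the other engineered strains. PDE_07124 had 15.5, 16.5 and 17.5 FPKM in gXlnRC and 9.51 ± 1.37 FPKM in gAraRC (SD, n = 3). Tested directly, it was 8.97 ± 0.08 higher on the log2 scale in gCXC than in gXlnRC (SE, limma, adjusted p = 1.33e-15) and 9.72 ± 0.08 higher than in gAraRC (adjusted p = 1.03e-15). PDE_02681 had at most 0.378 FPKM in any gXlnRC or gAraRC library, and was 9.16 ± 0.15 and 9.37 ± 0.15 higher in gCXC (adjusted p = 1.55e-13 and 2.57e-13). As PDE_02681 passed the filter only through gCXC, its tests support nothing by themselves.

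The largest fall was that of PDE_02123, of 1191 nt. It had 219, 236 and 180.2 FPKM in WT and 4.16, 3.83 and 2.81 FPKM in gCXC, where 54 to 92 reads per library were left. The groups were far apart, and the log2 change was -5.54 ± 0.11 (SE, limma, adjusted p = 2.79e-12). PDE_00021, a short gene of 462 nt, had 1011, 1142 and 1074 FPKM in WT and 23.1, 34.7 and 21.9 FPKM in gCXC, a log2 change of -5.32 ± 0.16 (adjusted p = 8.62e-11). By mean FPKM it went from rank 130 in WT to rank 4557 in gCXC.

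These 2 genes were also lower in gCXC than in the other engineered strains. PDE_02123 had 55.8, 52.9 and 51.6 FPKM in gXlnRC and 20.2, 21.2 and 20.2 FPKM in gAraRC, with log2 differences (gCXC minus the other strain, SE, limma) of -3.58 ± 0.11 and -2.24 ± 0.11 (adjusted p = 1.21e-10 and 3.07e-09). PDE_00021 had 173.5, 173.3 and 200.4 FPKM in gXlnRC and 78.5, 63.5 and 56.4 FPKM in gAraRC, with log2 differences of -2.76 ± 0.16 and -1.30 ± 0.16 (adjusted p = 3.00e-08 and 7.43e-06). For both genes gCXC held the lowest libraries of the series and WT the highest.

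**Figure D1:**
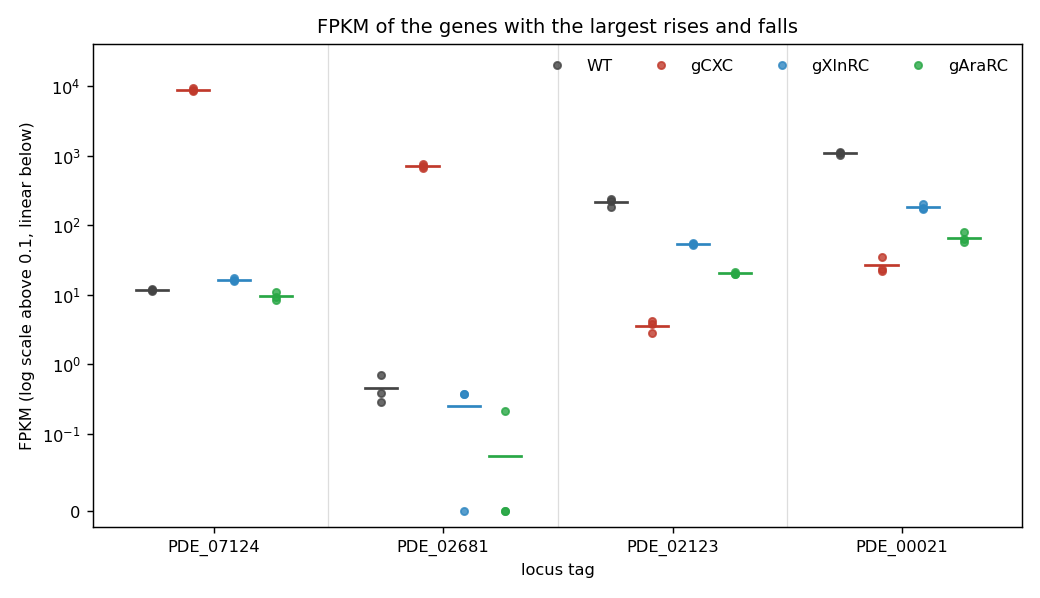
FPKM (y axis, log scale above 0.1 and linear below) of the 2 genes with the largest rises and the 2 with the largest falls in gCXC against WT (x axis), with a point per library and a line at the mean of the 3 libraries of WT, gCXC, gXlnRC and gAraRC. PDE_07124 and PDE_02681 are high in gCXC alone, at 8486 FPKM or more and 668 FPKM or more, while PDE_02123 and PDE_00021 are highest in WT and lowest in gCXC.

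Changes in gCXC were widespread and mostly small. In all, 4581 of the 8920 tested genes were called (51.4%), 2174 of them higher (24.4%) and 2407 lower (27.0%). Of the called genes, 3036 changed by less than 1.5-fold, and 646 changed by 2-fold or more, with 187 higher (2.10% of tested genes) and 459 lower (5.15%). The 3 gCXC libraries all lay above the 3 WT libraries for 29.6% of tested genes and all below them for 31.0%. Of the 4581 called genes, 141 had overlapping groups.

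The small majority of lower calls turned with the scaling. Rescaled to TPM, which moves the median log2 change from -0.00027 to 0.056, 2676 genes were higher and 2039 lower. Median-of-ratios scaling gave 2382 and 2266, and quantile normalization 2567 and 2079. Falls of 2-fold or more outnumbered rises under each, with 408, 435 and 397 genes lower against 193, 188 and 200 higher.

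The balance between rises and falls depended on the size of the change. Below 1.5-fold, 1680 genes were higher and 1356 lower, and between 1.5-fold and 2-fold 307 were higher and 592 lower. Falls remained more frequent from 2-fold to 4-fold (137 higher, 365 lower), from 4-fold to 8-fold (27 and 56) and from 8-fold to 16-fold (10 and 25). At 16-fold and above the directions were level, with 13 genes each, but on the FPKM + 1 scale a fall of this size cannot start near 0. The balance of large changes turned with the pseudocount. At 4-fold or more, 94 genes were lower and 50 higher. These counts were 148 and 63 with a pseudocount of 0.1, and 50 and 40 with a pseudocount of 5.

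**Figure D2:**
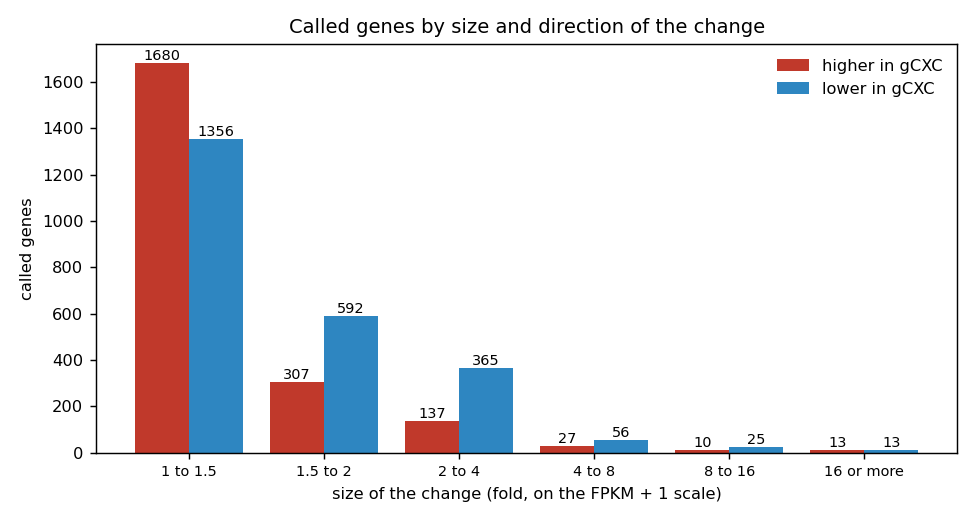
Called genes (y axis) by the size of the change in gCXC against WT (x axis, fold on the FPKM + 1 scale), with red bars for genes higher and blue bars for genes lower in gCXC. Falls outnumber rises in each class from 1.5-fold to 16-fold, and 13 genes of each direction lie at 16-fold or above.

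The 13 genes with the largest rises ended at high levels in gCXC. Their WT means ran from 0.460 to 72.2 FPKM, with a median of 14.5, and their gCXC means from 97.0 to 12450 FPKM, with a median of 827. In gCXC, 12 of them had a mean of at least 100 FPKM and 5 of at least 1000 FPKM, while none reached a mean of 100 FPKM in WT. Their coding lengths ran from 942 to 2106 nt. The 13 genes with the largest falls had WT means from 18.7 to 1872 FPKM and a median of 157, and ended between 0.0993 and 103 FPKM, with a median of 3.60. On the FPKM + 1 scale a fall of this size cannot start near 0 while a rise can, so the starting levels of the lists are not compared. In all 26 genes the WT and gCXC libraries did not overlap, which the choice by size nearly fixes.

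Over the wider set, the 187 genes at least 2-fold higher (called raised below) had a median of 14.5 FPKM in WT and 74.1 FPKM in gCXC. Of these, 24 had a mean of at least 100 FPKM in WT and 78 in gCXC, and 2 reached 1000 FPKM in WT and 14 in gCXC. The 459 genes at least 2-fold lower (called lowered below) went from a median of 47.5 FPKM in WT to 15.1 FPKM in gCXC. Of these, 169 had a mean of at least 100 FPKM in WT and 63 in gCXC, and 27 reached 1000 FPKM in WT and 11 in gCXC. Log2 changes had a median of 1.46 among raised and -1.44 among lowered genes, values that the 2-fold threshold sets in part. Of the raised genes, 9 had every WT library below 1 FPKM and passed the filter only through gCXC, and of the lowered genes 54 passed only through WT.

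**Figure D3:**
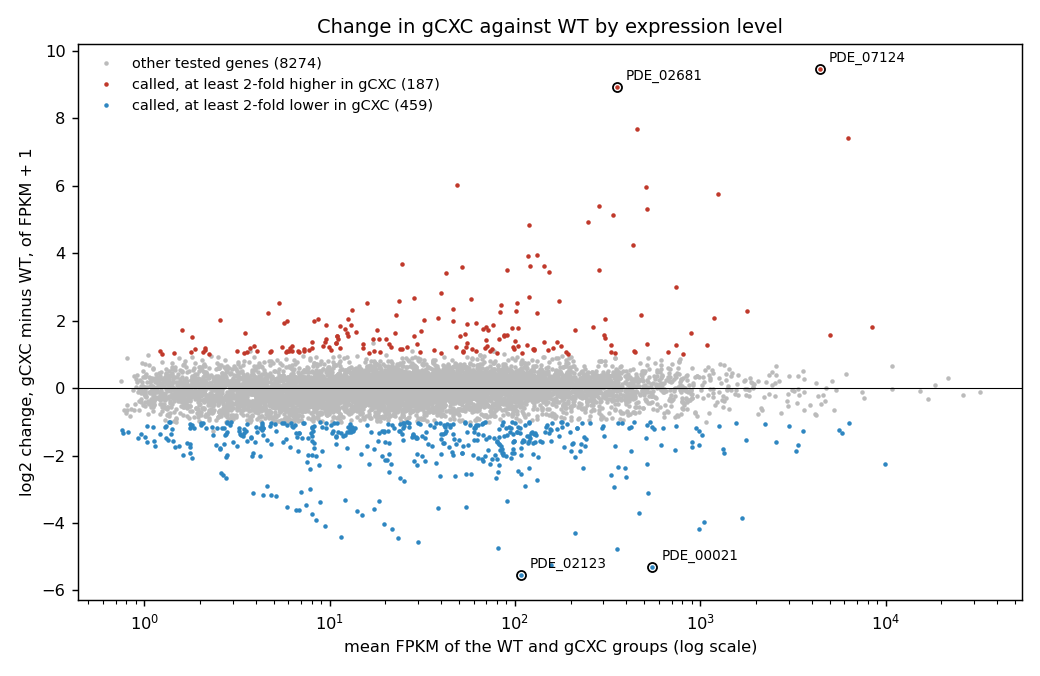
Log2 change in gCXC against WT (y axis, FPKM + 1) by the mean FPKM of the groups (x axis, log scale), with a point per tested gene. Red points are the 187 raised genes, blue points the 459 lowered genes and grey points the other tested genes, and the 4 circled genes are those with the largest rises and falls.

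Few tested genes crossed the level of 1 FPKM, counted here without regard to call or size of change. Below 1 FPKM in every WT library and at 1 FPKM or more in every gCXC library were 23 of 8920 tested genes. Of these, 2 had a mean of 10 FPKM or more in gCXC. One is PDE_02681. The other, described after its values were seen, carries the next lower tag number, and went from 0.894, 0.271 and 0.418 FPKM in WT to 102, 98.3 and 90.7 FPKM in gCXC. It too passed the filter only through gCXC, and no test is given. In gXlnRC and gAraRC it had at most 0.809 FPKM in any library, as low as in WT. In the opposite direction, 81 tested genes stood at 1 FPKM or more in every WT library and below 1 FPKM in every gCXC library. Among them, 11 had a WT mean of 10 FPKM or more. By definition the 23 genes passed the filter only through gCXC and the 81 only through WT, so both counts support nothing by themselves.

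Changes of 2-fold or more occurred at every level of expression. Of 138 genes with a mean of at least 1000 FPKM over the 6 libraries, 8 were raised (5.80%) and 18 lowered (13.0%). Of 3537 genes between 10 and 50 FPKM, 49 were raised (1.39%) and 120 lowered (3.39%). Of 1304 genes below 5 FPKM, 22 were raised (1.69%) and 94 lowered (7.21%), with a median log2 change of -0.15. The filter bears on such low genes: over all levels, 54 lowered genes passed it only through WT and 9 raised genes only through gCXC. Lowered genes had a median inferred coding length of 939 nt, against 1140 nt for raised genes and 1168.5 nt for all tested genes.

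The 3 most abundant genes by mean FPKM were the same in WT and gCXC, all with short coding lengths of 108 to 315 nt. PDE_06607, of 108 nt, had 24139.8, 20623 and 56718 FPKM in WT and 15658, 30084 and 45533 FPKM in gCXC. Its libraries varied more within each strain than between them, and the groups overlapped (log2 -0.13 ± 0.41, SE, adjusted p = 0.808, limma). PDE_06391, of 243 nt, had 29152, 27803 and 27312 FPKM in WT and 24466, 23514 and 24495 FPKM in gCXC. Its groups did not overlap, and the change did not pass the test (log2 -0.22 ± 0.09, adjusted p = 0.0655, limma), though it did in 2 of 16 other fits, with limma voom (adjusted p = 0.0246) and with a mean of at least 5 FPKM as the filter (adjusted p = 0.0392), and adjusted p values reached 0.185 in the others. The third gene, of 315 nt, had 21947, 19524 and 16919.5 FPKM in WT and 22734, 23733 and 25260.4 FPKM in gCXC. Its log2 change of 0.30 ± 0.11 passed the test (adjusted p = 0.0317), and the call was lost in 6 of 16 other fits, at adjusted p values of up to 0.125.

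In terms of reads, the gain of the raised genes and the loss of the lowered genes were of similar size. The choice of the genes by their change fixes both directions. The raised genes took 1.67%, 1.59% and 1.88% of the reads counted in genes in the WT libraries and 9.92%, 9.76% and 9.62% in the gCXC libraries, a gain of 8.05 percentage points. The lowered genes took 13.1%, 12.9% and 12.9% in WT and 4.22%, 4.04% and 4.01% in gCXC, so their share fell by 8.85 percentage points. Shares within a library sum to a whole, so a gain in some genes lowers the others by itself.

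The gain was concentrated in a few genes. The 3 raised genes with the largest gains, picked after their values were seen, made up 57.9% of it, and PDE_07124 is the third of them. The gene with the largest gain, of 1641 nt, went from 67.3, 68.5 and 80.9 FPKM in WT to 12753, 12263 and 12334 FPKM in gCXC, a log2 change of 7.41 ± 0.10 (SE, limma, adjusted p = 8.86e-14). It became the gene with the most reads in gCXC, with 2.04% ± 0.0435 of them (SD, n = 3), against 0.0119% ± 0.00123 and rank 1588 in WT. In gXlnRC it stood at 827 ± 27.5 FPKM and in gAraRC at 118 ± 18.7 FPKM, and direct tests placed it 3.91 ± 0.10 and 6.72 ± 0.10 higher in gCXC on the log2 scale (adjusted p = 1.91e-11 and 2.13e-13).

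The gene with the second largest gain was already abundant in WT. Of 1491 nt, it went from 4043, 3744 and 3489 FPKM in WT to 13318, 13545 and 12731 FPKM in gCXC, a log2 change of 1.81 ± 0.21 (SE, limma, adjusted p = 2.25e-05), and from rank 14 to rank 2 by reads. Its gAraRC libraries were uneven, with 7333, 3766 and 3837 FPKM. The remaining 184 raised genes took 1.06%, 1.02% and 1.34% of the reads in WT and 4.55%, 4.52% and 4.51% in gCXC. They took more in gXlnRC, with 6.58%, 6.56% and 6.72%, whereas the 3 genes with the largest gains held 5.24% ± 0.131 in gCXC and 0.488% ± 0.0595 in gXlnRC (SD, n = 3).

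**Figure D4:**
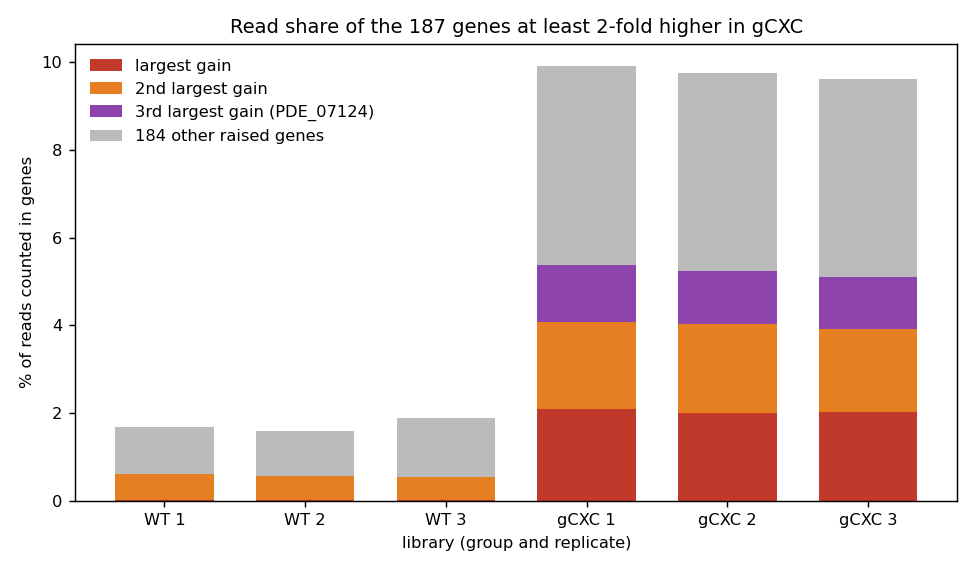
Share of the reads counted in genes (y axis, %) held by the 187 raised genes in each WT and gCXC library (x axis), with the 3 genes of largest gain and the 184 others stacked. The total lies between 1.59% and 1.88% in WT and between 9.62% and 9.92% in gCXC, and the genes with the largest and the third largest gain are too small to see in WT.

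Reads moved toward the very top of the distribution, away from the ranks just below. The 10 genes with the most reads in a library held 7.72% ± 0.183 of them in WT and 9.99% ± 0.0918 in gCXC (SD, n = 3), with no overlap between the groups. Those of ranks 11 to 100 held 24.2%, 23.6% and 23.1% in the WT libraries and 20.8%, 20.9% and 21.4% in the gCXC libraries, again with no overlap. Both shifts cancel over the 100 genes with the most reads, which held 31.4% ± 0.656 and 31.0% ± 0.281. The 10 genes with the most reads held 10.4% ± 0.476 in gXlnRC and 13.3% ± 0.877 in gAraRC (SD, n = 3). A top share above that of WT was thus not particular to gCXC. Ranks 11 to 100 held 23.3% ± 0.115 in gXlnRC and 27.8% ± 0.335 in gAraRC. The gene with the most reads in WT, of 684 nt and described after its values were seen, lost most. It had 17395, 16456 and 15672 FPKM in WT and 3714, 3466 and 3175 FPKM in gCXC, a log2 change of -2.26 ± 0.16 (SE, limma, adjusted p = 3.50e-07), and was of rank 44 by reads in gCXC. The other strains lay on either side, with 39503 ± 9456 FPKM in gAraRC and 1281 ± 188 FPKM in gXlnRC (SD, n = 3).

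Some changes ran along consecutive locus tags, whose numbers run in series, although the table gives no coordinates. Of the 459 lowered genes, 147 (32.0%) had a lowered gene at a neighbouring tag number, against 8.35% of all tested genes. Of the 187 raised genes, 46 (24.6%) had a raised neighbour, against 3.65% of all tested genes. Runs of at least 4 consecutive tags, all called and changed 2-fold or more in 1 direction, numbered 6 among lowered genes and 1 among raised genes. The lowered runs with highest gCXC values of 0.684, 0.812 and 0.347 FPKM hold only genes that passed the filter through WT alone. The neighbour shares also include such genes, 54 among the lowered genes, and 9 raised genes that passed only through gCXC. So these counts support nothing by themselves. No test of this clustering was made, and the runs described below were picked after their values were seen.

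The only raised run held 4 tags, and the last of them changed most. This gene, of 2964 nt, had 14.7, 15.3 and 15.6 FPKM in WT and 248, 248 and 247 FPKM in gCXC, a log2 change of 3.94 ± 0.06 (SE, limma, adjusted p = 3.42e-13). The 3 tags before it rose by 1.45 ± 0.11, 1.46 ± 0.09 and 1.86 ± 0.20 on the log2 scale (adjusted p = 4.94e-07, 4.83e-08 and 9.77e-06). The rise stopped at the last gene: the next tag had 58.1 ± 2.18 FPKM in WT and 58.1 ± 1.65 FPKM in gCXC (SD, n = 3). The 2964-nt gene was higher in gCXC than in gXlnRC, at 80.5 ± 8.25 FPKM, and than in gAraRC, at 16.2 ± 0.328 FPKM, by 1.61 ± 0.06 and 3.85 ± 0.06 on the log2 scale (adjusted p = 1.35e-09 and 3.46e-13). The first 2 tags of the run were instead higher in gXlnRC than in gCXC, with log2 differences (gCXC minus gXlnRC) of -2.38 ± 0.11 and -0.72 ± 0.09 (adjusted p = 4.60e-09 and 1.69e-05). The strand setting of the counting is not given, so reads of overlapping neighbours cannot be told apart.

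The lowered runs covered stretches of low and of very high expression. The longest pair of neighbouring runs spans 15 consecutive tags, of which 13 were lowered and 14 called lower. None of its genes had a mean above 23.0 FPKM in WT or above 2.71 FPKM in gCXC. Of the 13, 12 had every gCXC library below 1 FPKM and so passed the filter only through WT, where the median of the 13 was 2.29 FPKM, and the counts of this stretch support nothing by themselves. PDE_02123, the gene with the largest fall, lies in none of the runs. With gaps of 1 tag allowed between lowered genes, it lies in a stretch of 11 tags. Of these, 10 were tested, 8 were lowered and 1 was called higher. Of the 8 lowered genes, 1 passed the filter only through WT. The highest gene of this stretch had a mean of 403 FPKM in WT, and no gene exceeded a mean of 19.3 FPKM in gCXC.

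The run with the highest expression holds 5 tags, among them the gene with the most reads in WT. Together they took 2.42%, 2.37% and 2.29% of the reads in WT and 0.455%, 0.413% and 0.377% in gCXC, so that the groups were far apart. All 5 fell in gCXC, with log2 changes between -3.86 and -1.73. The 3 tags before them, set off by 1 tag that did not pass the test, were lowered as well (log2 -1.12, -3.98 and -4.19). In gXlnRC the 5 genes took 0.394% ± 0.0614 of the reads, close to gCXC, and in gAraRC 6.39% ± 1.66 (SD, n = 3). A further run of 5 lowered tags was instead highest in gXlnRC, with 0.0418% ± 0.00276 of the reads in WT, 0.0111% ± 0.000446 in gCXC, 0.0954% ± 0.00419 in gXlnRC and 0.0191% ± 0.00206 in gAraRC.

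**Figure D5:**
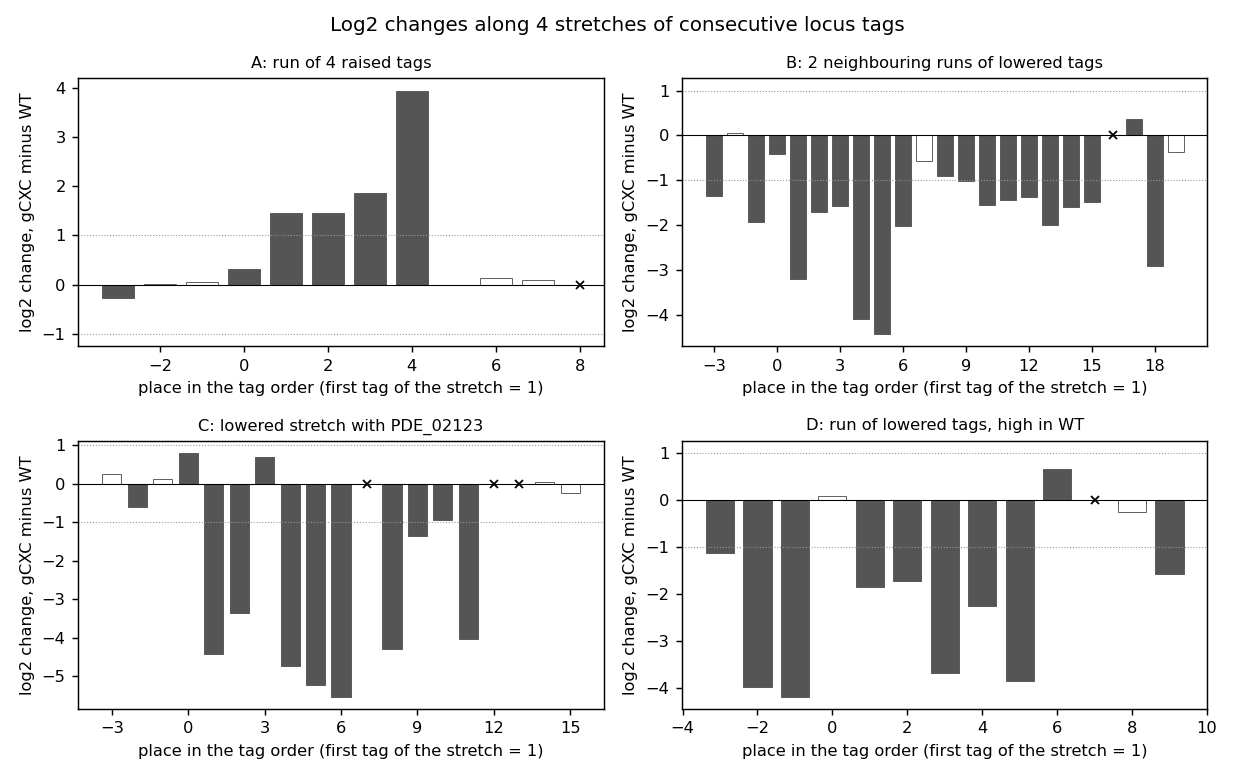
Log2 change in gCXC against WT (y axis) along 4 stretches of consecutive locus tags (x axis, place in the tag order), with filled bars for called genes, open bars for tested genes not called, crosses for untested tags and dotted lines at 2-fold. Each stretch is drawn with 4 tags on either side, and the rise in panel A stops at the last of its 4 tags while panels B to D hold long series of falls.

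The changed genes were also tested directly against the other engineered strains. These contrasts compare no WT mean, but WT libraries enter the shared estimate of the spread, and the genes were chosen with the same gCXC libraries, so the counts describe the lists. The lists include 9 raised genes that passed the filter only through gCXC and 54 lowered genes that passed only through WT. The filter used no gXlnRC or gAraRC library, which bears on the shares of all tested genes as well. So these counts and shares support nothing by themselves. Of the 187 raised genes, 91 were called higher in gCXC than in both gXlnRC and gAraRC, as were 27.7% of all tested genes (36.9% and 54.4% for each strain alone). A further 35 were higher than in gXlnRC but not than in gAraRC, 29 the reverse, and 32 were higher than in neither. The shares of all tested genes in these further classes were not counted, so nothing is read from them. In 38 of the 187 raised genes gXlnRC was called higher than gCXC, and in 32 gAraRC was, against 22.4% and 21.4% of all tested genes. The median log2 difference from gXlnRC was 1.04 over the raised genes and 0.093 over all tested genes, and that from gAraRC was 1.19 and 0.31.

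Of the 459 lowered genes, 186 were called lower in gCXC than in both other strains, as were 10.4% of all tested genes (22.4% and 21.4% for each strain alone). A further 105 were lower than in gXlnRC but not than in gAraRC, 72 the reverse, and 96 were lower than in neither. For these classes too the shares of all tested genes were not counted, so nothing is read from them. In 39 of the 459 lowered genes gXlnRC was called lower still, and in 83 gAraRC was, against 36.9% and 54.4% of all tested genes. The median log2 difference of the lowered genes was -0.57 from gXlnRC and -0.44 from gAraRC. In all, 59.3% of tested genes were called between gCXC and gXlnRC and 75.8% between gCXC and gAraRC. These shares and counts, and those above for both strains, rest on unscaled FPKM. Median-of-ratios size factors were 1.08, 1.08 and 1.06 in gCXC, 1.02, 0.990 and 1.02 in gXlnRC and 0.856, 0.856 and 0.850 in gAraRC. How far the calls between these strains turn with the scaling was not counted.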

How the data were processed

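mRNA libraries of 4 strains, 3 each, were grouped by their titles. The authors deposited 1 table of FPKM values. The submitters' processing notes list featureCounts 1.5.0-p1, HISAT2 2.0.0, DESeq2 and CASAVA 1.8 with no role for any. Genome build, annotation and strand setting are not given there.

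limma 3.58.1 (R 4.3.3, trended prior) was fitted to log2(FPKM + 1), unscaled, for the 8920 genes that passed the filter, with 1 mean for each of the 4 strains. Tests were two-sided, adjusted by Benjamini-Hochberg over these genes. The comparisons of gCXC with gXlnRC and gAraRC came from this fit. FPKM values proved to be multiples of the worth of 1 read, from which reads, totals and coding lengths (in 3-nt steps) were inferred for every tested gene. All positive values of these genes lay within 0.1 reads of a whole number, in part by construction of the search. No count model was used. Fit and inference were also run on simulated data. These data took over the inferred lengths and had a fixed spread. So they check neither the 3-nt steps nor the spread between real libraries.

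Tags were printed for the 2 called genes with the largest change in each direction (groups apart, mean of at least 10 FPKM in either group) and for the most abundant genes, except 1 that rose. Other genes are described without tags. The rule, the lists and the comparison were chosen with earlier results of these data known. Lists of enzymes and regulators could not be used, since no source at hand pairs tags with names. Alternatives were pseudocounts, filters, scalings, a fit of 6 libraries, a replicate block, each of 6 libraries left out, and limma voom on inferred reads. Python 3.11.15, numpy 2.4.6, pandas 2.3.3 and matplotlib 3.10.9 served for tables and plots.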

Additional observations from a re-analysis of the deposited data

How the results depend on the processing

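The 12 log2 differences of PDE_07124, PDE_02681, PDE_02123 and PDE_00021 (gCXC against WT, gXlnRC and gAraRC) held their direction and call in all 184 values from other fits (highest adjusted p 6.21e-05, limma). They were picked for large changes, so this says little about other genes. For PDE_02681, which passed the filter only through gCXC, the other fits add no support. The size for PDE_02681 against WT ran from 7.03 to 10.5 on the log2 scale. Of 112 counts of called genes under alternatives, 108 stayed within 1.5 times. With a pseudocount of 5, which damps changes of low genes, 294 instead of 459 genes were at least 2-fold lower and 50 instead of 94 at least 4-fold lower, the latter being 148 with a pseudocount of 0.1 and 152 with limma voom. TPM and quantile normalization moved the median log2 change from -0.00027 to 0.056 and 0.050. PDE_06607 turned to higher in gCXC with quantile normalization (0.071), and ran from -0.49 to 0.32 with single libraries left out, passing the test in no fit.

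Without single libraries, 3928 to 4305 genes were called, with 1791 to 2110 higher, 2120 to 2372 lower, 174 to 207 raised and 443 to 477 lowered. A replicate block gave 4560 called genes, 188 raised and 459 lowered. Deviations of same-numbered WT and gCXC libraries correlated at 0.16, 0.023 and 0.073 across genes, so the numbers were not taken as pairs. Depth limits the size of changes that start or end below 1 FPKM.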
